A study of Mus musculus with 3 samples.

Results

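Gamma delta T cells of the irradiated mouse lung were described in 3 single-cell libraries. Of 19622 cells 369 were chosen, with 196 of 6372 cells in CONV, 91 of 6983 in CONV AsiDNA and 82 of 6267 in FLASH. The cells were chosen by their own transcripts. A cell entered when at least 1 of Cd3e, Cd3g and Cd3d was above 0, at least 2 of Trdc, Tcrg-C1, Cd163l1, Trdv4 and Trgv2 were above 0, and none of Cd8b1 (CD8 T cells), Cd79a (B cells) and C1qa (macrophages) was. The levels of these genes in the members are therefore a description of the choice and carry no test.

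Each library came from dissociated lung tissue of 1 female, wild-type C57BL6/J mouse killed 5 months after the thorax had received 13 Gy. The CONV mouse was irradiated at a conventional dose rate and the FLASH mouse at an ultra-high dose rate. The CONV AsiDNA mouse was irradiated as CONV and had received AsiDNA, a DNA oligonucleotide that mimics a double-strand break, at 100 mg/kg daily over the preceding 2 days and 200 mg/kg when irradiated. All 3 mice were irradiated, and unirradiated lungs were not analysed here. Since each condition was 1 mouse, there was no replicate check of any difference between conditions, no p-value was computed for one, and the mouse, the library and the treatment cannot be told apart.

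Gamma delta T cells carry an antigen receptor of a gamma and a delta chain in place of the alpha and beta chains. They seed barrier tissues early in life, and in the mouse they divide into a type 17 population, which depends on the transcription factors c-Maf and Sox13 and makes IL-17 soon after IL-23 or IL-1 arrives, and a type 1 population, which depends on T-bet and makes interferon gamma and cytotoxic proteins. In the lung the type 17 population is known for drawing in neutrophils and for its part in infection, allergy and fibrosis models.

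The constant segments of the gamma chain are near copies, which may bear on how reads were assigned to them. Their first 100 bases are shown for Tcrg-C1, Tcrg-C2 and Tcrg-C4, from the GENCODE annotation of GRCm38, 5′ to 3′ in the direction of the gene, with capitals at the bases that differ from Tcrg-C1.
Tcrg-C1, chr13:19214103-19214202, plus strand: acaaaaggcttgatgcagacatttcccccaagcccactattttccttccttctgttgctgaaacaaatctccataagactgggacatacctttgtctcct
Tcrg-C2, chr13:19307452-19307551, minus strand: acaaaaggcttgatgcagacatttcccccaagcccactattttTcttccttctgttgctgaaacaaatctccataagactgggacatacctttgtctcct
Tcrg-C4, chr13:19344558-19344657, plus strand: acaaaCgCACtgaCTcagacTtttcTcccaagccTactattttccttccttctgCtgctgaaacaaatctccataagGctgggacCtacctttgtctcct
Over the first 300 bases Tcrg-C2 was 97.3% identical to Tcrg-C1 and Tcrg-C4 82.7%. Another copy, Tcrg-C3, was 95.7% identical and was above 0 in 1 member cell, in CONV AsiDNA. Levels of Tcrg-C2 and Tcrg-C4 thus cannot be taken as independent of the rule, and the assignment of reads among the copies was not tested.

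The receptor genes divided the members differently in the 3 libraries. Trdc, the delta constant segment (chr14:54142851-54148868, plus strand), was above 0 in 81.6%, 64.8% and 54.9% of the members of CONV, CONV AsiDNA and FLASH. Tcrg-C1 (chr13:19214103-19217024) was above 0 in 91.8%, 85.7% and 85.4%. Cd163l1, the scavenger receptor SCART1 of type 17 cells (chr7:140218267-140231145), was above 0 in 69.4%, 46.2% and 24.4%. The delta variable segment Trdv4 followed the same order at 68.9%, 35.2% and 28.0%, whereas the gamma variable segment Trgv2 ran the other way at 55.6%, 76.9% and 84.1%. A member without Cd163l1 and Trdv4 had to enter through Trgv2, Trdc or Tcrg-C1, so these opposite courses partly restate the rule. Trgv2 was above 0 in 85.0%, 89.8% and 96.8% of members without Cd163l1, and in 42.6%, 61.9% and 45.0% of those with it. Outside the rule, Tcrg-V6, the variable segment of the Vγ6 chain, was above 0 in 35.7%, 16.5% and 14.6% of the members, and Tcrg-C2 in 45.4%, 64.8% and 65.9%. SCART2, a relative of Cd163l1 listed as 5830411N06Rik, was above 0 in 5.61%, 23.1% and 14.6% of the members of CONV, CONV AsiDNA and FLASH. CONV was thus the highest library for Cd163l1, Trdv4 and Tcrg-V6 and the lowest for Trgv2, Tcrg-C2 and SCART2, while the order of the other 2 libraries varied.

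The threshold of the rule was met by a narrower margin in CONV AsiDNA and FLASH. In CONV 129 members (65.8%) had 4 or 5 of the rule genes above 0, against 35 (38.5%) in CONV AsiDNA and 20 (24.4%) in FLASH. Members with exactly 2 numbered 46, 44 and 48. Just outside the rule were 140, 118 and 115 cells with a Cd3 gene, none of the excluded genes and exactly 1 rule gene. Il17a was above 0 in 4.35%, 13.6% and 2.08% of the cells just inside and in 7.14%, 9.32% and 5.22% of those just outside. The alpha constant segment Trac was above 0 in 56.5%, 52.3% and 66.7% just inside and in 66.4%, 70.3% and 62.6% just outside. The type 17 gate described below held 45.7%, 63.6% and 62.5% of the cells just inside and 40%, 64.4% and 52.2% of those just outside. Cells at the edge of the rule thus often carried alpha chain transcripts, and cells with type 17 genes lay on both sides of it.

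Over all members Trac was above 0 in 31.1%, 33.0% and 52.4% of the members of CONV, CONV AsiDNA and FLASH, against 79.2% to 84.0% of the cells chosen as alpha beta T cells (a Cd3 gene and at least 1 of Trac, Trbc1 and Trbc2 above 0, none of the rule genes, of Cd79a and of C1qa). The beta constant segment Trbc2 was above 0 in 82.7% to 90.1% of the members, so that a strict exclusion of alpha and beta transcripts left 10, 1 and 4 cells. The coreceptor Cd4 was above 0 in 0.510%, 2.20% and 2.44% of the members. All 17 myeloid, all 10 epithelial and all 8 fibroblast markers were at 0 in every member, as were 8 of 10 B cell and 7 of 8 mast cell and basophil markers. C1qa and Cd79a are among these markers and were excluded by the rule. The 8 endothelial markers summed to 35.2, 3.21 and 7.06 adjusted counts per 1e6 (CPM), with 6 at 0. The 10 ILC2 markers, which T cells share in part, summed to 470, 257 and 201 CPM. Markers of non-lymphoid lineages were thus at or near 0, while alpha and beta chain transcripts were frequent. The share of members with Trac was highest in FLASH, and its part in the differences of FLASH was not tested.

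The deposited values are natural logs of 1 plus a whole number, called adjusted counts here. Their sums were 23908890, 26417388 and 23383510 in CONV, CONV AsiDNA and FLASH, and the members' median was 3234.5, 3536 and 3490 adjusted counts a cell. Doublets were neither called nor removed. Pairs of libraries shared 9 to 17 barcodes, and no barcode was shared by all 3. Some genes differed between libraries beyond the members. Gm42418, an RNA that overlaps a ribosomal repeat, was above 0 in every member of CONV and CONV AsiDNA and in none of FLASH, and in 99.5%, 99.9% and 0.0993% of B cells. Mitochondrial transcripts made up 0.447%, 0.462% and 2.34% of the members' adjusted counts and 0.539%, 0.205% and 1.53% of those of alpha beta T cells.

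Gamma delta cells were more frequent in CONV than in either other library. They made up 3.08% of all cells in CONV (exact Clopper-Pearson 95% interval 2.67 to 3.53). The share was 1.30% (1.05 to 1.60) in CONV AsiDNA and 1.31% (1.04 to 1.62) with FLASH. Of the 1410, 986 and 1222 cells with a Cd3 gene above 0 they made up 13.9% (12.1 to 15.8), 9.23% (7.50 to 11.2) and 6.71% (5.37 to 8.26). CONV stood apart from both other libraries on either scale, and CONV AsiDNA and FLASH had overlapping intervals. These intervals cover the sampling of cells only and not the spread between mice. Requiring Trdc gave 2.51%, 0.845% and 0.718%, and requiring 3 of the 5 rule genes gave 2.35%, 0.673% and 0.543%, with CONV highest in each. With 1 rule gene enough, a choice made after the data were seen, the shares were 5.27%, 2.99% and 3.14%.

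**Figure D1:**
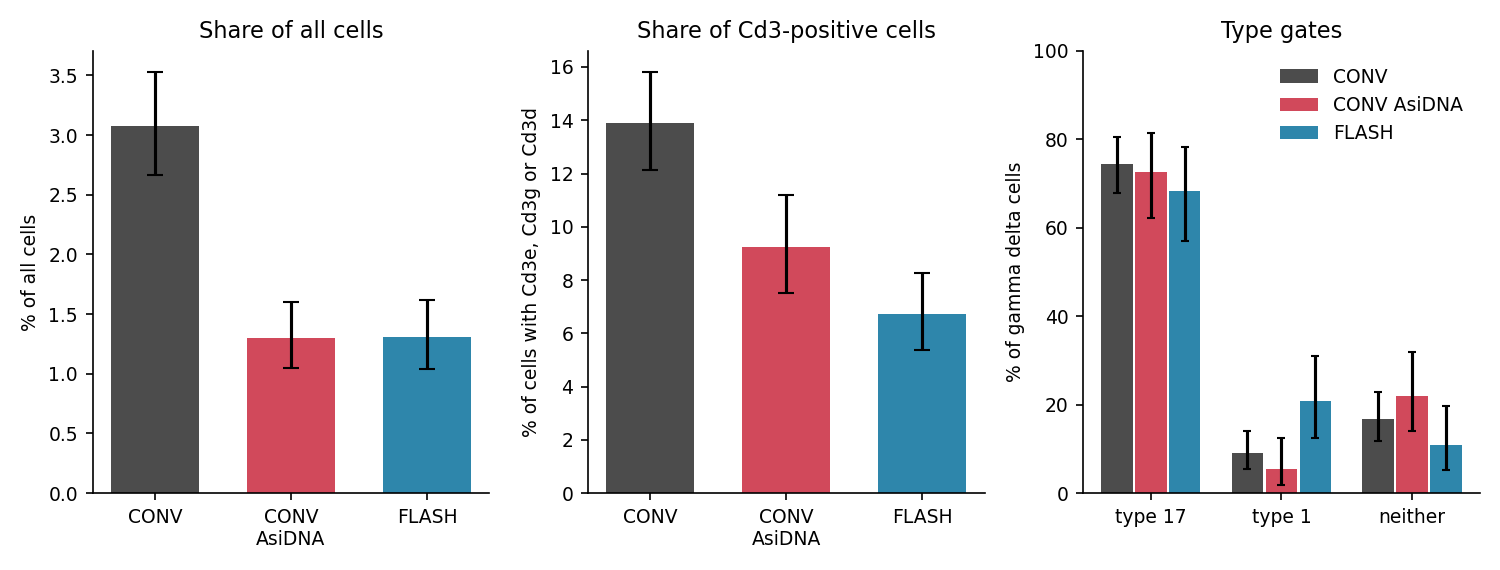
Bars give the gamma delta cells as % of all cells, as % of cells with Cd3e, Cd3g or Cd3d, and the % of gamma delta cells in the type 17 gate, the type 1 gate or neither, for 1 library per condition, with exact 95% intervals. The share of all cells was 3.08% in CONV, against 1.30% and 1.31%, and type 17 cells were the majority in all 3 libraries.

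Type 17 cells were the majority in all 3 libraries. With at least 2 of 10 type 17 genes above 0 (among them Il17a, Il17f, Il23r, Ccr6, Blk, Il1r1, Il17re, Sox13 and Actn2), 74.5% (67.8 to 80.4), 72.5% (62.2 to 81.4) and 68.3% (57.1 to 78.1) of the members of CONV, CONV AsiDNA and FLASH were counted as type 17. The same gate held 7.62%, 6.99% and 6.00% of alpha beta T cells. In B cells, which share Blk and Ccr6 with the gate, it held 3.82%, 6.40% and 5.56%, at a median of 2882.5, 2979.5 and 3078 adjusted counts. Type 1 cells, with at least 2 of 10 type 1 genes above 0 (Tbx21, Ifng, Eomes, Gzma, Gzmb, Klrd1, Klrc1, Nkg7, Ccl5, Xcl1), made up 9.18% (5.53 to 14.1), 5.49% (1.81 to 12.4) and 20.7% (12.6 to 31.1) of the members, 34.2%, 44.2% and 38.3% of alpha beta T cells, and 0.298% of B cells in FLASH with none in the other B cells. A single member, in CONV, met both gates. The intervals of the type 17 shares overlapped between all pairs of libraries. The type 1 share was highest in FLASH, where its interval overlapped that of CONV but not that of CONV AsiDNA. With 1 rule gene enough, the type 17 shares were 60.1%, 67.9% and 58.9% and the type 1 shares 19.3%, 8.61% and 22.3%. With each cell thinned to 1000 adjusted counts, which left out no cell, the type 17 shares were 44.9%, 31.9% and 35.4% and the type 1 shares 8.16%, 4.40% and 18.3%.

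Il17a, the cytokine that defines type 17 cells (chr1:20730905-20734496, plus strand), differed widely between the libraries. It was above 0 in 93 of 196 members of CONV (47.4%, 40.3 to 54.7), in 15 of 91 of CONV AsiDNA (16.5%, 9.53 to 25.7) and in 8 of 82 of FLASH (9.76%, 4.31 to 18.3). Summed over the members its level was 1605, 697 and 208 CPM, and the highest cell held 73, 59 and 23 adjusted counts. CONV was above both other libraries in the share of cells and in the level. Thinned to 1000 adjusted counts the shares were 34.7%, 14.3% and 4.88%. In alpha beta T cells Il17a was above 0 in 1.88%, 0.822% and 0.526% of the cells, and in B cells in none. On log2(CPM + 10), which understates the change of low genes, Il17a was 1.19 higher in CONV than in CONV AsiDNA, 2.89 higher in CONV than in FLASH and 1.70 higher in CONV AsiDNA than in FLASH.

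As background to these levels, a ratio of 2 or more on CPM + 10 was passed by 4.19% of 5301 genes in the direction of CONV over CONV AsiDNA and by 5.41% in the opposite direction. Between CONV and FLASH it was passed by 7.02% higher and 6.49% lower in CONV, and between CONV AsiDNA and FLASH by 6.38% higher and 4.07% lower in CONV AsiDNA. The median log2 ratio of all genes was -0.07, 0.00 and 0.06 for these pairs. The comparisons share libraries and are not independent.

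The promoters of Il17a and of the IL-23 receptor gene Il23r hold AGGTCA, a core sequence that many nuclear receptors bind. The 250 bases before each start, from RefSeq on GRCm38.p6, are shown 5′ to 3′ in the direction of the gene, with AGGTCA or its reverse complement TGACCT in capitals.
Il17a, chr1:20730655-20730904, plus strand: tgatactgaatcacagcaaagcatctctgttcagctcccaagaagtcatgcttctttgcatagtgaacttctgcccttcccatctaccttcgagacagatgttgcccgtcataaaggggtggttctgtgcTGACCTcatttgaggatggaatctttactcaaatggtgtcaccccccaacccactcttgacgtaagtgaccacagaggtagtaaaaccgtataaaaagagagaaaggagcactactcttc
Il23r, chr6:67491856-67492105, minus strand: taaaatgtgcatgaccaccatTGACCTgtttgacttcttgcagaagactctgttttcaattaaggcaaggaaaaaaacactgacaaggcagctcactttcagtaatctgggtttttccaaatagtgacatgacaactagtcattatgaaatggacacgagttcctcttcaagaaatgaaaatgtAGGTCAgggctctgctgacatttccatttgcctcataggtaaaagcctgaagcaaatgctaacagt
Of the 10 type 17 genes, 8 had a window in the table, and 5 of these 8 held the motif on either strand in a window (Il17a, Il17f, Il23r, Ccr6, Actn2). It was found in 5 of their 10 windows (50%), against 14.0% of 32851 windows of the same length. A match is a description of the letters and not of binding.

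Other secreted products of type 17 cells took different courses. Areg, the epithelial growth factor amphiregulin, was above 0 in 13.8%, 1.10% and 0% of the members of CONV, CONV AsiDNA and FLASH. In alpha beta T cells it was above 0 in 5.54%, 0.959% and 1.89%. Csf2, the growth factor GM-CSF, was lowest in CONV, at 3.57% (1.45 to 7.22) against 19.8% (12.2 to 29.4) and 13.4% (6.89 to 22.7). Areg thus ranked the libraries as Il17a did and Csf2 did not. Il17f was above 0 in 2, 2 and 1 members, Il22 in 0.510%, 1.10% and 0%, and Tnfsf11, the cytokine RANKL, in 12.2%, 17.6% and 8.54%. Of 15 type 17 effector genes tested between conditions, 2 were more than 2-fold higher and 2 more than 2-fold lower in CONV against CONV AsiDNA, and again 2 and 2 against FLASH, with median log2 ratios of -0.09 and 0.24.

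Among inhibitory receptors, Pdcd1, Ctla4, Havcr2 and Lag3 were most frequent in CONV, and Cd5 and Tigit were not set apart in this way. Pdcd1, which encodes PD-1, was above 0 in 55.6% (48.4 to 62.7), 23.1% (14.9 to 33.1) and 17.1% (9.66 to 27.0) of the members of CONV, CONV AsiDNA and FLASH, and in 16.1%, 9.59% and 7.58% of alpha beta T cells. Ctla4, a competitor of the costimulator CD28, was above 0 in 37.8% (30.9 to 44.9), 11.0% (5.40 to 19.3) and 12.2% (6.01 to 21.3). In alpha beta T cells, where regulatory cells carry it, Ctla4 was above 0 in 47.7%, 34.7% and 31.3%. CONV was the highest library for both genes in both kinds of T cell. Havcr2, which encodes TIM-3, was above 0 in 10.7% of the members of CONV and in none of the other 2 libraries, and Lag3 in 3.06% and likewise in none. Tigit stayed at or below 1.53% in all 3, and Cd5 was lowest in CONV at 2.04%, 5.49% and 9.76%. Of 9 genes of the activation and checkpoint list tested, 2 were more than 2-fold higher and 2 more than 2-fold lower in CONV against CONV AsiDNA, and 3 and 2 against FLASH.

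The 5 genes farthest above both other libraries in CONV, by the smaller of their log2 ratios, were Spry1 (2.88), an inhibitor of receptor kinase signalling, Ctla4 (2.82), the carboxypeptidase Cpd (2.55), the coreceptor Nrp1 (2.15) and the elongation factor Ell2 (2.06). Nrp1 was above 0 in 40.3% (33.4 to 47.5), 6.59% (2.46 to 13.8) and 7.32% (2.73 to 15.2) of the members. Cpd was above 0 in 30.6%, 6.59% and 3.66%, and Spry1 in 16.3%, 1.10% and 1.22%. Each of these genes was above 0 in at most 11.0% of alpha beta T cells, apart from Ctla4. Another 2 genes, Ppp1r14c and Jcad, were each above 0 in 27.0% of the members of CONV and in none of FLASH, with 11.0% and 2.20% in CONV AsiDNA. Rgs1, a brake on chemokine receptor signalling found in resident T cells, measured 1007, 328 and 187 CPM. Id2, an inhibitor of E proteins, was above 0 in 79.6%, 51.6% and 57.3%, and Sox13 in 27.0%, 12.1% and 8.54%.

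**Figure D2:**
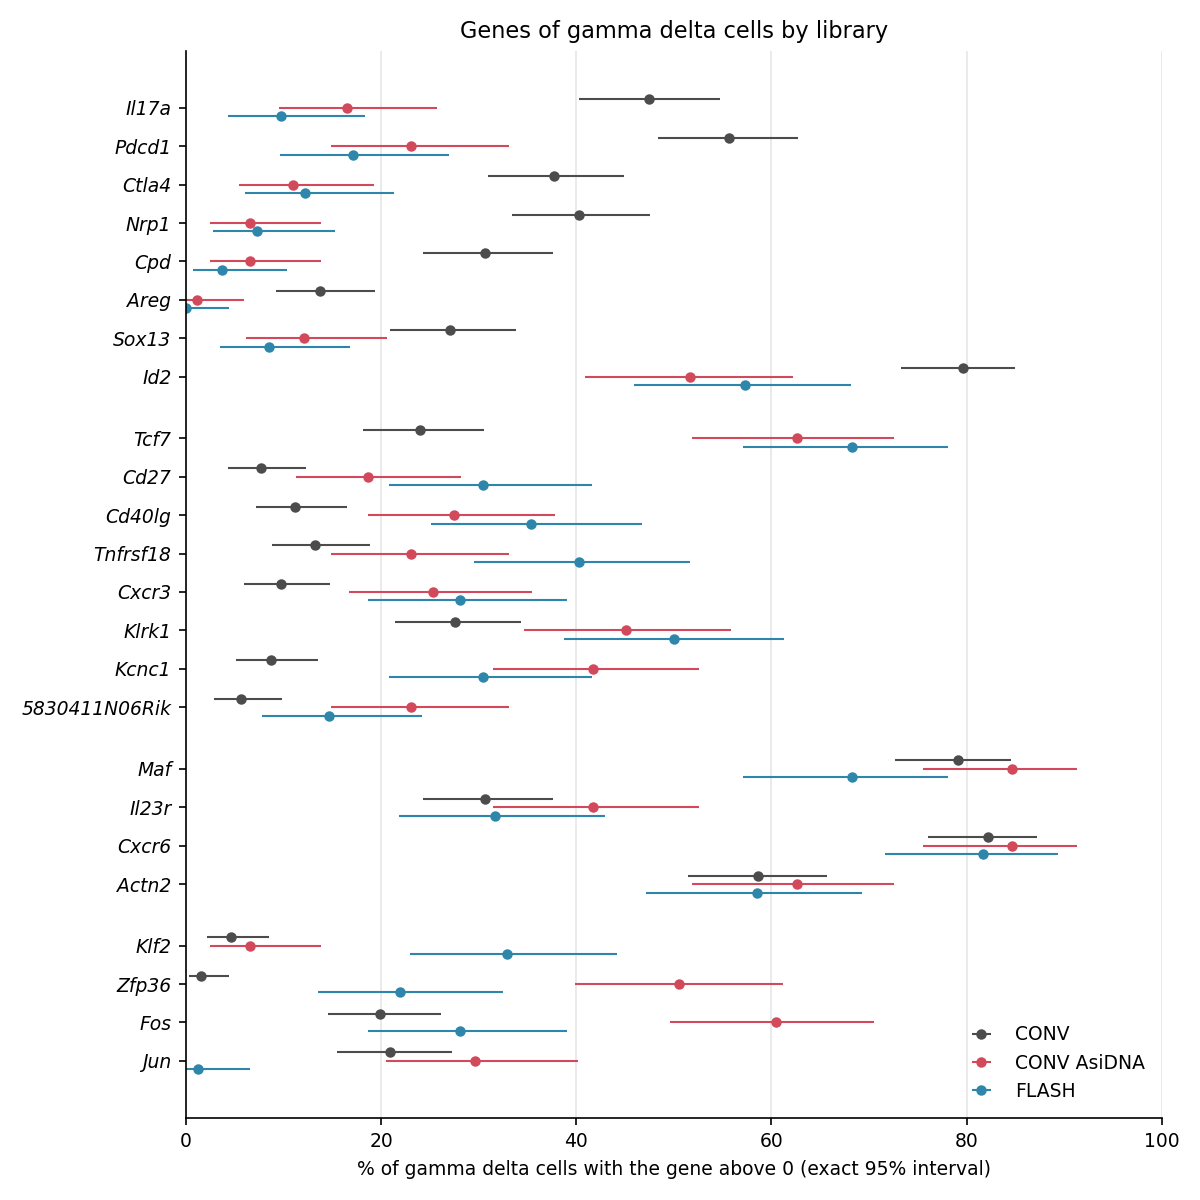
Points give the % of gamma delta cells with each gene above 0 in CONV (196 cells), CONV AsiDNA (91) and FLASH (82), with exact 95% intervals, for genes picked after their values were seen. The upper block was highest in CONV, such as Il17a at 47.4%, and the next block lowest in CONV, such as Tcf7 at 24.0%. The intervals of the block from Maf to Actn2 overlapped between all pairs of libraries, and the lowest block holds genes that stood apart in FLASH or CONV AsiDNA.

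Genes of less differentiated T cells were lowest in CONV. Tcf7, the transcription factor TCF-1, was above 0 in 24.0% (18.2 to 30.6), 62.6% (51.9 to 72.6) and 68.3% (57.1 to 78.1) of the members of CONV, CONV AsiDNA and FLASH. In alpha beta T cells it was above 0 in 52.5%, 64.4% and 71.7%, the same order over a smaller range. Cd27, a costimulatory receptor that type 17 gamma delta cells lack, was above 0 in 7.65%, 18.7% and 30.5%, against 8.75%, 7.55% and 13.0% of B cells. Among members without Cd163l1 the Cd27 shares were 25.0%, 26.5% and 40.3%, with overlapping intervals. Among those with Cd163l1 they were 0%, 9.52% and 0%. Satb1, a chromatin organiser, was above 0 in 27.6%, 40.7% and 54.9%, against 51.6% to 53.8% of B cells, where it is also expressed. Thinned to 1000 adjusted counts, Tcf7 was above 0 in 8.67%, 20.9% and 42.7%. Lef1 did not follow them, at 14.8%, 15.4% and 18.3%, and Ccr7 stayed at or below 7.32%. Among 5 tested genes of the naive and stem-like list, none was more than 2-fold higher in CONV in either comparison, 1 was lower against CONV AsiDNA and 2 against FLASH, and the median log2 ratios were -0.53 and -0.80. The medians of the same genes in alpha beta T cells were -0.19 and -0.56.

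Another 4 genes that were lowest in CONV, picked after their values were seen, encode surface proteins. Cd40lg, the ligand of CD40, was above 0 in 11.2% (7.17 to 16.5), 27.5% (18.6 to 37.8) and 35.4% (25.1 to 46.7). Tnfrsf18, which encodes GITR, was above 0 in 13.3%, 23.1% and 40.2%, and the chemokine receptor gene Cxcr3 in 9.69%, 25.3% and 28.0%. Klrk1, which encodes the stress ligand receptor NKG2D, was above 0 in 27.6%, 45.1% and 50.0%. In all 4 the CONV value was the lowest, and for Cd40lg, Cxcr3 and Klrk1 the interval of CONV did not reach that of either other library. Other receptors did not follow them, such as the costimulatory receptor gene Icos at 66.3%, 62.6% and 67.1%. Of 10 tested residency and migration genes 3 were more than 2-fold higher and 3 lower in CONV against CONV AsiDNA, and 2 and 4 against FLASH, with median log2 ratios of -0.07 and -0.47. The 5 genes farthest below both others in CONV were Zfp36 (-2.65), Gdi2 (-2.17), Acp5 (-2.06), the potassium channel gene Kcnc1 (-1.97) and Shld1 (-1.96), a component of the shieldin complex of DNA end joining. Kcnc1 was above 0 in 8.67%, 41.8% and 30.5% of the members and in at most 8.22% of alpha beta T cells. Acp5 was low in CONV in other cells too, with 3.56%, 29.9% and 35.3% of alpha beta T cells and 2.21%, 38.6% and 37.1% of B cells.

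Of 7 tested genes of the type 1 gate, 5 were more than 2-fold lower in CONV than in FLASH and 5 lower in CONV AsiDNA than in FLASH. None of them was past 2-fold higher, and the median log2 ratios were -1.40 and -1.60. Of all genes tested, 6.49% and 4.07% were past 2-fold lower in these comparisons. Gzma (0, 0 and 64.1 CPM) and Xcl1 (13.0, 6.49 and 46.3 CPM in the comparisons with other gates) met the minimum mean of 20 CPM only through FLASH. The counts and medians thus partly restate that filter and carry no test. Nkg7, a protein of cytotoxic granules, was above 0 in 9.69% (5.94 to 14.7), 7.69% (3.15 to 15.2) and 24.4% (15.6 to 35.1) of the members. The chemokine Ccl5 measured 945, 970 and 2833 CPM and was above 0 in 8.16%, 5.49% and 17.1%. Klrd1, which encodes CD94, was above 0 in 5.10%, 4.40% and 17.1%, and Eomes in 6 cells of FLASH (7.32%) and no cell of the other libraries. Klrc1, which encodes NKG2A, did not follow, at 22.4, 41.8 and 28.2 CPM. Ccl5 was at 0 in all members with 4 or 5 rule genes, and among those with 2 or 3 it was above 0 in 23.9%, 8.93% and 22.6%, with overlapping intervals in CONV and FLASH. The 7 tested genes of the gate had medians of -0.42 and 0.28 in alpha beta T cells. Ifng was above 0 in 1.02%, 1.10% and 4.88% and Tbx21 in 3.57%, 5.49% and 11.0%. Il2rb and Ctsw stood at 50.0% to 52.7% and 27.0% to 29.7% in all 3 libraries.

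Several regulators and receptors of the type 17 programme had overlapping intervals in the 3 libraries, although the interval of CONV for Sox13, given above, did not reach either other. Maf, which encodes c-Maf, was above 0 in 79.1%, 84.6% and 68.3% of the members, and Zbtb16, which encodes PLZF, in 27.0%, 25.3% and 22.0%. Il23r stood at 30.6%, 41.8% and 31.7% and the residency chemokine receptor Cxcr6 at 82.1%, 84.6% and 81.7%. The intervals of these 4 genes overlapped between all pairs of libraries. So did those of Ccr2 (68.9% to 76.9%), Ltb4r1 (45.1% to 51.6%), Actn2 (58.5% to 62.6%) and Kcnk1 (30.8% to 36.6%). Il17re, a receptor chain for IL-17C, was highest in FLASH at 40.2%, against 20.4% and 22.0%, and Ccr6 was above 0 in 8.67%, 15.4% and 22.0%, against 17.2% to 18.5% of B cells. Of 10 tested type 17 regulators 1 was more than 2-fold higher and 1 lower in CONV against CONV AsiDNA, and 1 was higher and none lower against FLASH. Their median log2 ratios were 0.30 and 0.67, and 9 of the 10 were above 0 against FLASH. Of 15 tested type 17 receptor genes, none was more than 2-fold higher in CONV, 1 was lower against CONV AsiDNA and 2 against FLASH. The median log2 ratios of the receptors were -0.02 and -0.03.

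The members were then divided by Cd163l1, a division chosen after its values were seen. Since Cd163l1 is one of the rule genes, the values in these cells are a description only. Cells with Cd163l1 above 0 numbered 136, 42 and 20, and those at 0 numbered 60, 49 and 62. With Cd163l1 above 0, 86.8%, 85.7% and 100% were in the type 17 gate and 0.735%, 0% and 0% in the type 1 gate. At 0 the type 17 shares were 46.7%, 61.2% and 58.1% and the type 1 shares 28.3%, 10.2% and 27.4%. Cells with Cd163l1 were thus mostly type 17 in each library, and type 1 cells were found without it, apart from 1 cell of CONV. Tcrg-V6, which the rule did not use, was above 0 in 48.5%, 33.3% and 60.0% of the cells with Cd163l1 and in 6.67%, 2.04% and 0% of those without. SCART2 was above 0 in 4.41%, 11.9% and 5.00% with Cd163l1 and in 8.33%, 32.7% and 17.7% without.

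Among cells with Cd163l1, Il17a was above 0 in 88 of 136 in CONV (64.7%, 56.1 to 72.7), 9 of 42 in CONV AsiDNA (21.4%, 10.3 to 36.8) and 5 of 20 in FLASH (25.0%, 8.66 to 49.1). Among cells without it the shares were 8.33% (2.76 to 18.4), 12.2% (4.63 to 24.8) and 4.84% (1.01 to 13.5). CONV was thus the highest among cells with Cd163l1, and among those without it the intervals of the 3 libraries overlapped. Pdcd1 was above 0 in 72.8%, 33.3% and 40.0% with Cd163l1 and in 16.7%, 14.3% and 9.68% without, where the intervals overlapped. Nrp1 was above 0 in 47.8%, 7.14% and 5.00% with Cd163l1 and in 23.3%, 6.12% and 8.06% without, where the interval of CONV reached those of the others. Tcf7 was lowest in CONV in both, at 13.2%, 52.4% and 75.0% with Cd163l1 and 48.3%, 71.4% and 66.1% without, where the intervals overlapped. CONV thus stood apart in all 4 genes among cells with Cd163l1, and whether the differences varied with Cd163l1 was not tested. Median adjusted counts of the cells with Cd163l1 were 3228.5, 3511.5 and 3471.5.

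**Figure D3:**
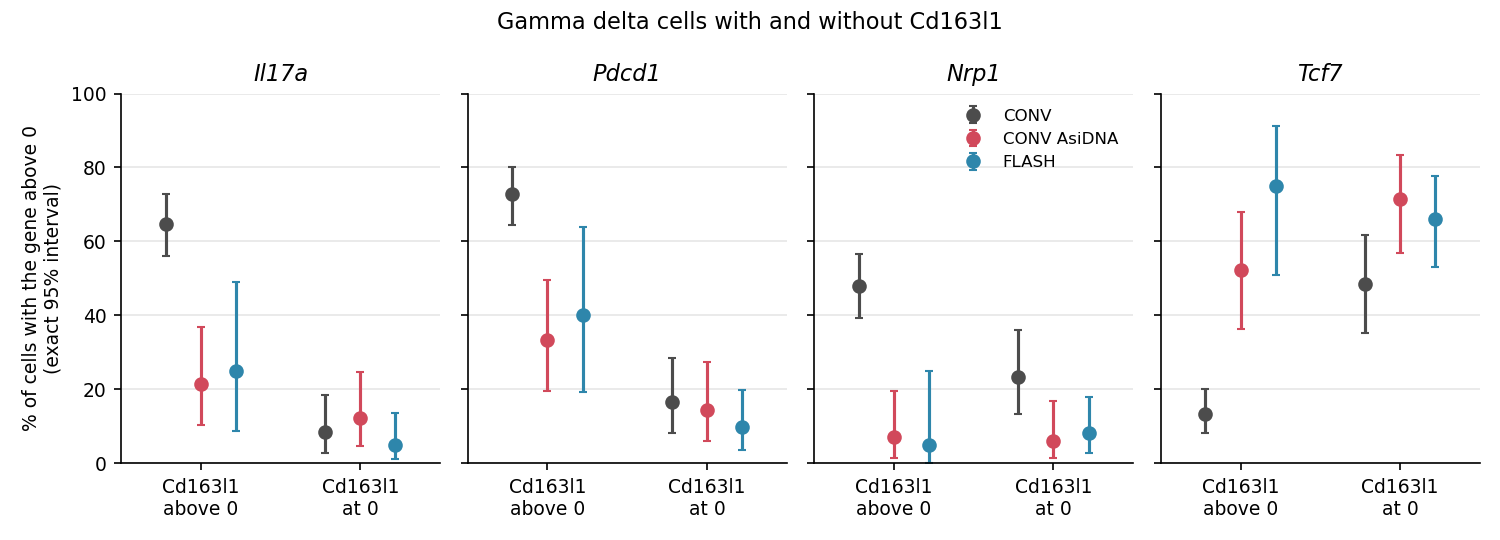
Points give the % of gamma delta cells with Il17a, Pdcd1, Nrp1 or Tcf7 above 0, divided by whether Cd163l1 was above 0, in 1 library per condition, with exact 95% intervals. With Cd163l1 above 0, Il17a reached 64.7% in CONV against 21.4% and 25.0%, while without it all 3 libraries lay at or below 12.2%.

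Several genes set CONV AsiDNA or FLASH apart, among them Fos, Zfp36 and mitochondrial genes. Zfp36, which encodes a protein that degrades cytokine mRNA, was above 0 in 1.53%, 50.5% and 22.0% of the members of CONV, CONV AsiDNA and FLASH, and in 2.48% to 4.32% of alpha beta T cells. Fos was above 0 in 19.9%, 60.4% and 28.0% of the members and in 7.75%, 31.7% and 11.8% of B cells. Zfp36 was above 0 in 3.52%, 13.1% and 4.87% of B cells. Both were thus highest in CONV AsiDNA, in the members and in B cells. Of 11 tested immediate early genes, none was more than 2-fold higher and 2 were lower in CONV against CONV AsiDNA. In CONV AsiDNA against FLASH 5 were higher and none lower. Their median log2 ratios were -0.51 and 0.70, against 0.29 and 0.03 for the same genes in alpha beta T cells. The 5 genes farthest above both others in CONV AsiDNA were Gpd2 (1.91), Cnih1 (1.65), Zfp36 (1.65), Derl1 (1.62) and Fos (1.59), and the 5 farthest below were mt-Nd2 (-3.07), Gng10 (-1.97), Gramd3 (-1.81), Polr3gl (-1.78) and Serpinb9 (-1.77). Mitochondrial genes differed between libraries in other cells too. Over 12 tested, the median log2 ratios were 0.40 (CONV over CONV AsiDNA), -3.06 (CONV over FLASH) and -2.54 (CONV AsiDNA over FLASH). In alpha beta T cells the same genes had medians of 1.54, -1.50 and -3.42. The processing step behind this is not known. Nr1d1, a repressor of the circadian clock, was above 0 in 6.63% (3.58 to 11.1), 24.2% (15.8 to 34.3) and 3.66% (0.761 to 10.3).

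In FLASH the genes farthest above both others were mt-Co1 (2.86), mt-Nd3 (2.56), Klf2 (2.53), mt-Co2 (2.51) and mt-Atp6 (1.92), and those farthest below were Jun (-4.59), Lars2 (-3.46), Atp6v1g1 (-2.45), the peroxiredoxin Prdx6 (-1.93) and Stx8 (-1.92). Klf2, which keeps T cells in circulation, was above 0 in 4.59%, 6.59% and 32.9% of the members. In alpha beta T cells it was above 0 in 37.5%, 69.5% and 72.0%, lowest in CONV but alike in CONV AsiDNA and FLASH. Jun was above 0 in 20.9%, 29.7% and 1.22% of the members and in at most 0.211% of alpha beta T cells in FLASH. Lars2, at 57.7%, 71.4% and 11.0%, was lowest in FLASH in alpha beta T cells (35.9%, 40.1%, 5.05%) and B cells (40.9%, 45.1%, 0%) too. mt-Co1 was likewise highest in FLASH in both, at 70.9% and 90.0% of cells. In all, 7 genes were at 0 in the members of 1 library and above 0 in at least 25% of those of another: Ppp1r14c, Jcad, Gm42418, AY036118, mt-Co3, mt-Nd4 and mt-Cytb. The mitochondrial zeros were not particular to the members. In the ILC2 gate without epithelial markers, described below, mt-Co3 measured 0, 0 and 2451 CPM. There mt-Nd4 measured 96.6, 0 and 254 CPM and mt-Cytb 96.6, 0 and 811 CPM.

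The members were next compared with alpha beta T cells, NK cells and an ILC2 gate over the 3 mice, which here serve as replicates although they differ in treatment. Cells were summed per gate and library, and limma was fitted to log2(CPM + 10) of the 12 sums with the library as a block and without the 26 genes used in any gate, so that CPM in these comparisons differ slightly from those above. Adjusted p-values are Benjamini-Hochberg over 6187 genes. Against alpha beta T cells 719 genes (11.6%) were higher and 246 (3.98%) lower in gamma delta cells at an adjusted p under 0.05, and the median log2 difference of all genes was 0.13. With quantile normalization 373 were higher and 323 lower. Without the CONV AsiDNA library 119 genes in all were past the threshold, without FLASH 330, without CONV 526, and with only the 2 gates in the fit 335. Of 69 named genes that were called, 23 were called under every alternative in which they could be tested.

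Type 17 genes were higher in gamma delta than in alpha beta T cells. Of the type 17 gate genes 8 of 8 tested were higher, with a median log2 difference of 2.67. Of 10 type 17 regulators 7 were higher and 1 lower, of 16 receptors 13 higher and 1 lower, and of 14 effectors 12 higher and none lower, against 11.6% and 3.98% of all genes. The lists share genes. Without the CONV AsiDNA library 6 of 8, 2 of 10, 8 of 16 and 7 of 14 were higher and none was lower. Without FLASH 7, 4, 8 and 10 were higher, and with only the 2 gates 5, 6, 8 and 8. Blk, a Src family kinase, measured 423, 263 and 242 CPM in the members and 4.94, 5.58 and 8.96 CPM in alpha beta T cells of CONV, CONV AsiDNA and FLASH, a log2 difference of 4.24 ± 0.20 (SE, n = 3 libraries; limma adjusted p 6.36e-06). Il17a measured 1627, 704 and 210 CPM in the members and 25.3, 54.2 and 8.96 CPM in alpha beta T cells. Its log2 difference was 4.18 ± 0.53 (limma adjusted p 0.00151), and over the alternatives the highest adjusted p was 0.0687, with only the 2 gates. Without CONV AsiDNA it was 0.0549. Members were above alpha beta T cells for both genes in every library.

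Receptors and channels differed with smaller standard errors than Il17a. Il23r measured 133, 162 and 135 CPM against 10.8, 11.2 and 10.2 CPM, a log2 difference of 2.88 ± 0.12 (limma adjusted p 6.36e-06). Kcnk1, a potassium channel of the K2P family, measured 151, 140 and 192 CPM against 7.41, 5.58 and 7.11 CPM, a difference of 3.34 ± 0.14. Tmem176a and Tmem176b, a pair of neighbouring genes for membrane proteins of type 17 cells, were higher by 3.43 ± 0.16 and 3.40 ± 0.36. Il1r1, Ltb4r1 (the leukotriene B4 receptor), Ramp1 (a coreceptor for the neuropeptide CGRP), Cxcr6 and Ccr2 were higher by 2.49 to 2.79 and were called under every alternative. Ckb, a creatine kinase, was higher by 3.18 ± 0.22 and was called under every alternative as well. Gpx1, a glutathione peroxidase, was higher by 3.52 ± 0.51 (limma adjusted p 0.00272) and was not called without CONV AsiDNA (0.0766) or with only the 2 gates (0.115).

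Exceptions stood within these lists. Batf, a partner of AP-1 needed by type 17 helper T cells, was lower by 0.85 on the log2 scale (-0.85 ± 0.19), and Il6st, the shared chain of the IL-6 receptor, was lower (-1.67 ± 0.17), although neither was called without the CONV AsiDNA library (limma adjusted p 0.216 and 0.0549). Their adjusted p over the alternatives reached 0.216 and 0.0558. Il7r (1.06 ± 0.38, limma adjusted p 0.0941) and Icos (0.80 ± 0.33, 0.144) did not pass the threshold. Pdcd1 was higher (1.60 ± 0.40, limma adjusted p 0.0286), with 467, 114 and 96.1 CPM in the members against 89.5, 40.3 and 35.2 CPM, but was not called in 7 alternatives, among them the fits without CONV AsiDNA (0.178) and without FLASH (0.123). Ctla4 did not differ at the threshold (-2.07 ± 0.74, limma adjusted p 0.0989) and was called lower without CONV (0.0194).

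**Figure D4:**
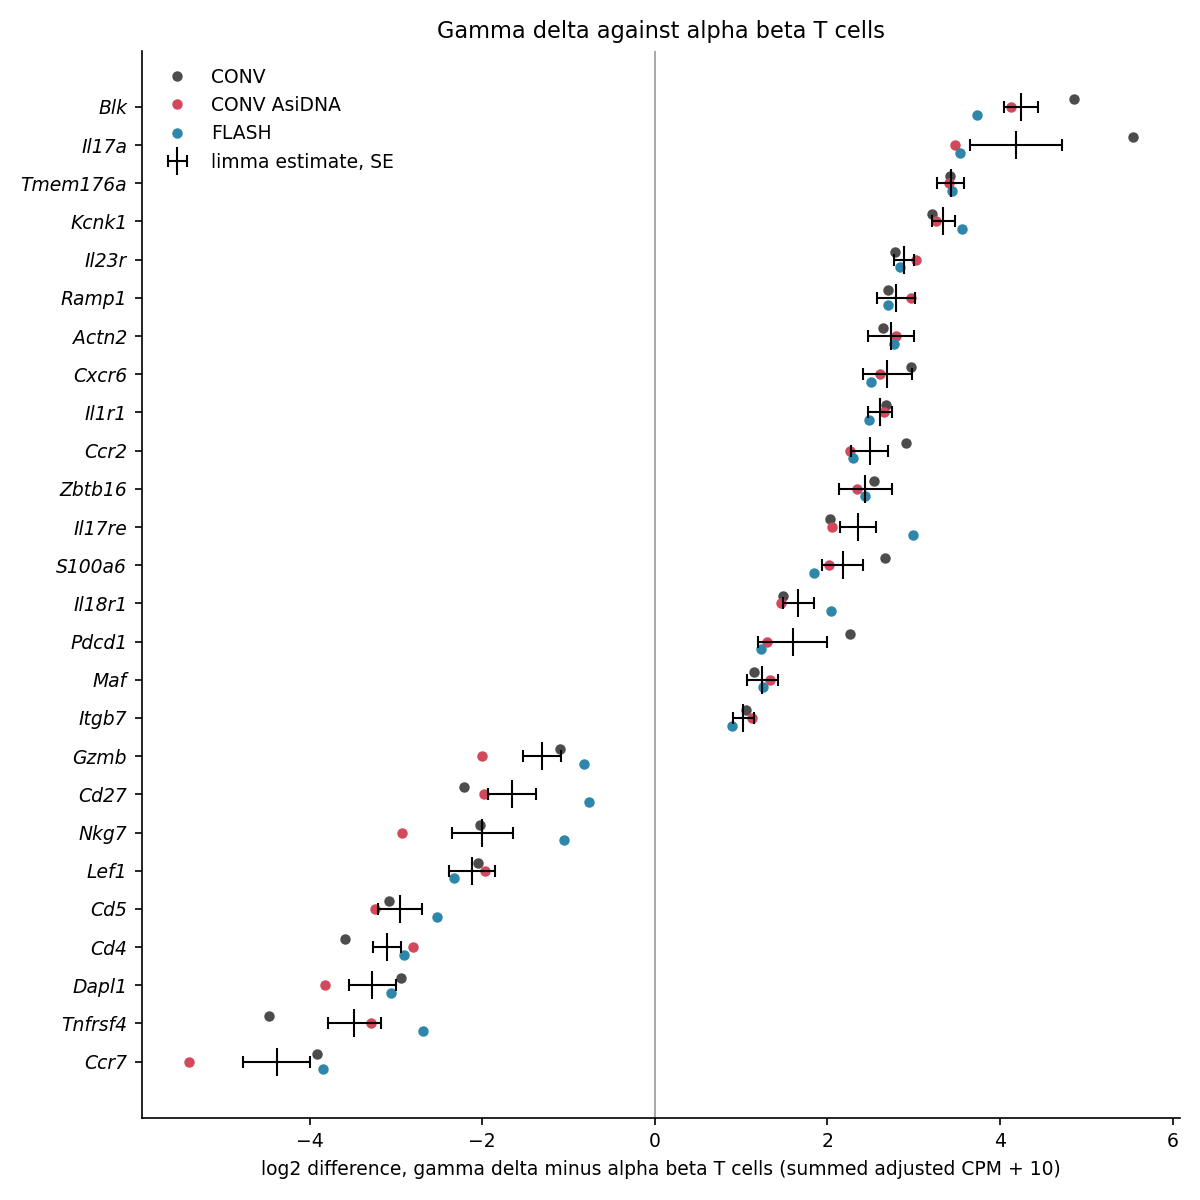
Grey, red and blue points give the log2 difference of summed adjusted CPM + 10 between gamma delta and alpha beta T cells in each library, and black marks the limma estimate with its SE over 3 libraries, for called genes picked after their values were seen. Differences run from 4.24 for Blk to -4.38 for Ccr7, and Il17a has the widest spread between libraries among the plotted genes that were higher in gamma delta cells.

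Genes of naive T cells were lower in the members. Of 8 naive and stem-like genes 7 were lower than in alpha beta T cells and none higher (median log2 difference -2.33). Ccr7, the receptor that brings T cells into lymph nodes, measured 17.8, 3.25 and 35.6 CPM against 409, 548 and 642 CPM, a log2 difference of -4.38 ± 0.39 (limma adjusted p 0.000251). Igfbp4, a marker of naive T cells, was listed at 0 in the members of all 3 libraries and measured 114, 84.6 and 132 CPM in alpha beta T cells. Tcf7 alone of these did not pass (-0.67 ± 0.36, limma adjusted p 0.258). Cd4 (-3.10 ± 0.16), the costimulatory receptors Tnfrsf4 (-3.48 ± 0.31) and Slamf6 (-3.07 ± 0.26) and the inhibitory Cd5 (-2.95 ± 0.25) were lower, and Cd8a was lower (-3.64 ± 0.23), which the exclusion of Cd8b1 by the rule bears on directly. Of 9 type 1 gate genes 4 were lower and none higher (Nkg7, Ifng, Gzma, Gzmb). Without the CONV AsiDNA library 4 of 8 naive genes and none of the 9 type 1 genes were called lower, and with only the 2 gates 3 of 8 and none of 9. With an alpha beta gate that also excluded Cd8b1, 466 genes were called in all, and 1 of 9 type 1 genes was lower. The interferon-induced Ifi27l2a was lower by 3.92 ± 0.22 SE and was called under every alternative tested.

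Lists of other functions were mixed against alpha beta T cells. Of 14 other type 1 genes 3 were higher (Klrk1, Ifngr1, Id2) and 4 lower, among them Cd27, Prf1 and Ly6c2. Without CONV AsiDNA 1 of the 14 was higher and 1 lower, without FLASH none was higher and 4 lower, and with only the 2 gates none was called. Of 11 residency and migration genes 2 were higher (Itgb7, Crem) and 4 lower, among them S1pr1, Klf2 and Ccr7. S1pr1, the receptor for exit from tissue, measured 74.6, 90.9 and 128 CPM against 444, 520 and 570 CPM. Without CONV AsiDNA none of the residency genes was called higher and 1 lower, and with only the 2 gates 1 and 1. Of 14 immediate early genes 4 were higher (Fos, Fosb, Junb, Dusp1) and none lower, and none was called without CONV AsiDNA, without FLASH, with only the 2 gates or with a pseudocount of 1.

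Against NK cells, chosen by at least 2 of Ncr1, Klrb1c, Klra8 and Eomes, no Cd3 gene and neither Cd79a nor C1qa (68, 279 and 203 cells), 874 genes (14.1%) were higher and 746 (12.1%) lower in gamma delta cells, and without the CONV AsiDNA library 794 were called in all. With only the 2 gates in the fit 305 were called. All 16 type 17 receptors, 13 of 14 effectors and 8 of 10 regulators were higher and none lower, against 7, 8 and 3 with only the 2 gates. Il17a, Il23r and Blk were listed at 0 in the NK cells of all 3 libraries. Tmem176a measured 1321, 1175 and 1014 CPM in the members and 9.98, 2.32 and 0 CPM in NK cells. All 9 type 1 gate genes were lower, against 5 with only the 2 gates. Gzma, a granzyme, measured 0, 0 and 64.1 CPM in the members and 12972, 15874 and 16602 CPM in NK cells, a log2 difference of -9.59 ± 0.65 (limma adjusted p 1.44e-05). Gzmb (-6.31 ± 0.22) and the perforin gene Prf1 (-6.73 ± 0.26) were lower as well, and Klra4, an NK receptor, was listed at 0 in the members. Summed over the 8 NK markers the members reached 27.2, 9.64 and 219 CPM in the 3 libraries, highest in FLASH, and the part of NK cells in the type 1 share of FLASH was not tested.

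Against the ILC2 gate (at least 2 of Gata3, Il1rl1, Rnf128, Il13 and Areg, no Cd3 gene, and none of Cd79a, C1qa, Cpa3 and Mcpt8) 1935 genes (31.3%) were higher and 1730 (28%) lower, but that gate went against its name. Of its 207, 204 and 144 cells, 53.1%, 52.9% and 61.8% carried an epithelial marker, and the genes farthest below in gamma delta cells were those of airway epithelium, such as Scgb1a1, Cbr2 and Wfdc2. Leaving out these cells, a choice made after the data were seen, kept 97, 96 and 55 cells, of which 70.1% to 78.1% had the leukocyte gene Ptprc above 0. Against them 582 genes were higher and 197 lower of 5249. Il17a was listed at 0 in them in all 3 libraries, and Calca (-4.88 ± 0.33), a gene of lung ILC2, was lower. The myeloid markers S100a9 (-6.62 ± 1.17) and S100a8 (-5.90 ± 1.14) were lower still. They measured 2250, 248 and 1612 CPM and 1320, 141 and 1055 CPM in the gate, which thus still held transcripts of other cells.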

How the data were processed

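Lung tissue was dissociated and profiled by 10x 3′ single-cell RNA sequencing. The submitters' processing notes name Cell Ranger 6.0.0 and mm10. The values deposited by the authors, who used Seurat, are on a natural log scale, ln(1 + n) with n whole for each gene and cell, and every value lay within 1e-06 of a whole number when turned back. These adjusted counts are not raw counts, so no count model, Poisson interval or lower limit was used, and a gene at 0 is only listed at 0. The other 12 per-sample columns and the tables of the authors' own comparisons (fold changes, p-values) were not used.

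Gates were applied per cell, cells were summed per gate and library, and CPM were taken on the sums, with a pseudocount of 10 and a mean of at least 20 CPM. A gene could pass this minimum through a single library or gate where it was high, so counts over tested genes of a list partly depend on it. Intervals of shares are 95% by the exact Clopper-Pearson method and hold counting error alone. With 1 mouse per condition no test between conditions was made. limma 3.58.1 in R 4.3.3 compared gates over 3 libraries, with the library as a block and Benjamini-Hochberg adjustment over all genes tested, and was tested on simulated data beforehand. The remaining steps ran in pandas 2.3.3, SciPy 1.17.1, NumPy 2.4.6 and matplotlib 3.10.9 under Python 3.11.15.

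The genes named are members of lists of receptor, type 17, type 1, activation, migration, naive, stress and marker genes, the 5 farthest above and below in each library among genes above 0 in at least 10% of members of 1 library, and the 10 with the largest called difference in each direction and gate. A few genes of the lists are counted but not reported here by name. Any other gene named was chosen after its values were seen. The members and lists were chosen with earlier results of these data known. Alternatives were other rules for the cells, gates, pseudocounts, filters, scalings, weights of cells and samples in the fit, each library left out, and each cell thinned to 1000 adjusted counts.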

Additional observations from a re-analysis of the deposited data

How the results depend on the processing

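With 1 mouse per condition the spread between mice is unknown, and the adjusted counts do not keep the depth of each cell. No paired analysis was possible because each condition had 1 sample and a single replicate number; the library was a block in the limma fit. No called difference and no ratio past 2-fold of a named gene changed sign under the alternatives run, while some smaller ratios did. CONV kept the highest gamma delta share and FLASH the highest type 1 share in each alternative. The order of the other shares changed. Type 1 cells were more frequent in CONV than in CONV AsiDNA (9.18% and 5.49%) but less so with Trdc required (5.62% and 8.47%). Type 17 cells were more frequent in CONV AsiDNA than in FLASH but not when thinned, and more frequent in CONV than in CONV AsiDNA but not with 1 rule gene or with 3 genes or 1 gene for the gate. CONV AsiDNA had the lowest gamma delta share at first, and FLASH with Trdc or 3 rule genes required. Requiring 3 of the 5 rule genes gave gamma delta shares of 2.35% (CONV), 0.673% (CONV AsiDNA) and 0.543% (FLASH), a type 17 share of 83.3% and a type 1 share of 2.67% in CONV. Requiring Trdc gave shares of 2.51%, 0.845% and 0.718% and a type 1 share of 33.3% in FLASH. With 1 rule gene enough, chosen after seeing the data, the shares were 5.27%, 2.99% and 3.14%, and in CONV 60.1% type 17 and 19.3% type 1. Excluding Trac, Trbc1 and Trbc2 gave 0.157%, 0.0143% and 0.0638%, too few cells for type shares or ratios (fewest 20), which were not run. Thinned to 1000 adjusted counts, the type 17 shares were 44.9%, 31.9% and 35.4%. With 3 genes for the gate they were 59.2%, 59.3% and 48.8%, and with 1 gene 88.3% in CONV and 89.0% in CONV AsiDNA, where the type 1 share was 13.2%.

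Genes past 2-fold numbered 509 between CONV and CONV AsiDNA, 716 between CONV and FLASH and 554 between CONV AsiDNA and FLASH. They numbered 1151, 1546 and 1329 with no filter and 203, 270 and 143 with a minimum of 50. The pair CONV and CONV AsiDNA gave 799 with 3 of the 5 genes and 861 with a pseudocount of 1, and the pair CONV AsiDNA and FLASH gave 982, 878 and, with Trdc required, 849.

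In limma, 965 genes differed from alpha beta T cells, against 624 with a prior of 1, 335 with only the 2 gates, 466 with the alpha beta gate without Cd8b1 and 605 with the ILC2 gate without epithelial markers, an alternative chosen after seeing the data. From NK cells 1620 differed, against 1009 with a minimum of 50 and 305 with only the 2 gates. From the ILC2 gate 3665 differed, against 6944 with no filter, 2101 with a minimum of 50 and 779 without epithelial markers. Leaving out 1 library gave 119 to 526 genes against alpha beta T cells, 794 to 1376 against NK cells and 2766 to 3382 against the ILC2 gate, lowest without CONV AsiDNA for the first 2 and without FLASH for the last. The cause was not tested. Of the values for named genes against other gates, 179 lost and 4 gained their call and 1019 stayed on the same side of the threshold, called or not. Of the gene ratios between conditions, 35 crossed the 2-fold threshold and 1453 did not, whatever the size of their change.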

Other observations

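Some targets of p53 were more often above 0 in the gamma delta cells of CONV. Cdkn1a, which encodes the cell cycle inhibitor p21, was above 0 in 15.3% (10.6 to 21.1) of the members of CONV and in none of CONV AsiDNA or FLASH, and in at most 0.594% of alpha beta T cells. Pmaip1, which encodes the BH3-only protein Noxa, was above 0 in 7.14% of the members of CONV and likewise in none, against 13.2%, 11.2% and 14.0% of B cells. Bbc3, which encodes Puma, was above 0 in 14.3%, 2.20% and 4.88%, with the same order in alpha beta T cells at 22.0%, 6.16% and 13.3%. Sesn1, at 18.9%, 20.9% and 19.5%, and Rrm2b, at 9.69%, 12.1% and 14.6%, did not follow. Of 9 p53 targets tested, out of 20 listed, 3 were more than 2-fold higher in CONV than in CONV AsiDNA and 4 than in FLASH, and none was lower. Cdkn1a and Bbc3 met the minimum mean of 20 CPM only through CONV. They measured 131, 0 and 0 CPM and 48.6, 6.49 and 14.2 CPM in the comparisons with other gates. The count and the medians of the tested targets thus partly restate that filter and carry no test. Cdkn1a was not particular to the members. In the ILC2 gate without epithelial markers it measured 155, 116 and 54.1 CPM, also highest in CONV, and Bbc3 measured 9.66, 3.06 and 16.2 CPM. The median log2 ratios of these 9 targets were 0.73 and 0.77, against -0.07 and 0.00 for all genes and 0.11 and 0.04 for the same genes in alpha beta T cells. All mice had been irradiated 5 months before and no replicate check was possible.

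Cycling gamma delta cells were rare. At least 3 of 16 proliferation genes were above 0 in 0 of 196 members of CONV, 0 of 91 of CONV AsiDNA and 3 of 82 of FLASH (3.66%, 0.761 to 10.3), a count made after seeing the data. Of these 3 cells, 2 were in the type 17 gate and 1 in the type 1 gate. Alpha beta T cells met the same count in 3.47%, 3.42% and 3.79%. Among stress genes, the chaperone gene Hspa8 measured 476, 900 and 889 CPM in the members and 688, 983 and 843 CPM in alpha beta T cells. Of 9 heat shock genes tested against alpha beta T cells, only Hspa5, the chaperone BiP of the endoplasmic reticulum, was called (limma log2 difference 1.19), and none was called without CONV AsiDNA or without FLASH. Of 12 interferon-stimulated genes 3 were lower, among them Ifi27l2a and Rtp4, against 1 without CONV AsiDNA or with only the 2 gates.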
